A study of Aquilegia coerulea with 32 samples.

Results

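The B-class MADS-box genes of Aquilegia coerulea were followed through 4 early stages of floral bud development. The group held the 5 loci whose symbol begins with AqAP3 or AqPI among the 20 type II MADS-box genes that the study displayed. In all, 30023 transcripts were quantified. Membership rested on names, but the group was chosen with earlier results of these data known. The members were AqAP3-1 (Aqcoe6G257100), AqAP3-2 (Aqcoe6G257300), AqAP3-3 (Aqcoe5G180800), AqAP3-3b (Aqcoe4G258900) and AqPI (Aqcoe6G031900). All 32 RNA-seq libraries came from wild-type plants of the cultivar Kiragami that had been vernalized, with 8 libraries at each stage and no treatment. Stamen primordia were still being initiated at s1, and buds had just completed the staminodes at s2, had carpels with raised rims at s3, and had a floral apex used up by carpel initiation at s4. Only 3 sepals were removed from every bud. The sampled material was thus the floral meristem, the organ primordia it carried at that stage and the remaining sepals. A library of s1, s2 or s3 pooled a pair of buds from different plants, whereas a library of s4 came from a single bud. Individual plants were not labelled. The libraries held more buds than there were plants, and pooled buds came from different plants, so some libraries must share a plant. The p-values measure the spread between these libraries, which are not all independent.

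B-class genes encode transcription factors that give petals and stamens their identity in flowering plants. The APETALA3 (AP3) and PISTILLATA (PI) proteins bind DNA as an obligate heterodimer and join with SEPALLATA proteins in larger complexes. In stamens these complexes also hold the C-class protein AGAMOUS. The buttercup family carries 3 ancient AP3 lineages, and in Aquilegia these have divided the ancestral role. AqAP3-3 is best known for petal identity, AqAP3-1 and AqAP3-2 act in stamens and staminodes, and AqPI is expressed and required in all of these organs.

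Library totals lay between 21502103 and 31647297 estimated counts, and no pair of libraries was identical. The members were covered deeply, with 4274 to 14411 counts for AqAP3-1, 5856 to 11078 for AqAP3-2, 379 to 1993 for AqAP3-3, 334 to 2079 for AqAP3-3b and 8047 to 13820 for AqPI. The estimated counts of all 5 members were whole numbers in all 32 libraries (tolerance 0.001), as were those of 60.2% of the 20220 transcripts that averaged at least 10 counts. This is the form that counts take when no read is divided between transcripts. The markers of floral meristem AqWUS, AqSTM1 and AqSTM2 were present at every stage. One library, s4 replicate 4, stood apart. It held 0.118 TPM of AqWUS, the gene of the stem cell organizing centre, where the s4 median was 7.13 TPM, and 11.6 TPM of the carpel gene AqCRC, where the s4 median was 34.6 TPM. After removal of the stage means, the first principal component over all genes tested took 38.7% of the remaining variance. The libraries farthest along it were s4 replicate 4, with a score of 145, s3 replicate 7, with 82.6, and s2 replicate 7, with 74.6.

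The levels of the 5 genes formed a high and a low tier. TPM is a relative level corrected for transcript length and library size, and the mean TPM over all libraries of a stage was the basis of the order. AqAP3-1, AqAP3-2 and AqPI were in the high tier at every stage, and in no stage did the ranges of these 3 genes overlap those of AqAP3-3 and AqAP3-3b. At s1 the order of the means was AqAP3-1 (512 TPM), AqPI (471 TPM), AqAP3-2 (366 TPM), AqAP3-3 (98.7 TPM) and AqAP3-3b (79.6 TPM). At s2 it was AqPI (434 TPM), AqAP3-2 (370.4 TPM), AqAP3-1 (361 TPM), AqAP3-3 (67.8 TPM) and AqAP3-3b (65.3 TPM). At s3 AqPI and AqAP3-2 were level (389 TPM each), followed by AqAP3-1 (321 TPM), AqAP3-3b (52.9 TPM) and AqAP3-3 (51.9 TPM). At s4 the order was AqAP3-2 (368 TPM), AqPI (359.7 TPM), AqAP3-1 (258 TPM), AqAP3-3 (44.8 TPM) and AqAP3-3b (43.4 TPM). Every pair of neighbours inside a tier had overlapping ranges at each stage. Within single libraries, however, some orders were fixed. AqPI exceeded AqAP3-2 in 8 of 8 libraries at s1 and at s2, and in 4 of 8 at s3. AqAP3-2 was the higher of this pair in 5 of 8 libraries at s4. AqAP3-3 exceeded AqAP3-3b in 8 of 8 libraries at s1, in 4 of 8 at s2 and at s3, and in 6 of 8 at s4. The 5 genes summed to 1526 ± 146 TPM in s1, 1298 ± 94.5 TPM in s2, 1204 ± 94.4 TPM in s3 and 1074 ± 57.1 TPM in s4 (SD, n = 8 each).

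**Figure D1:**
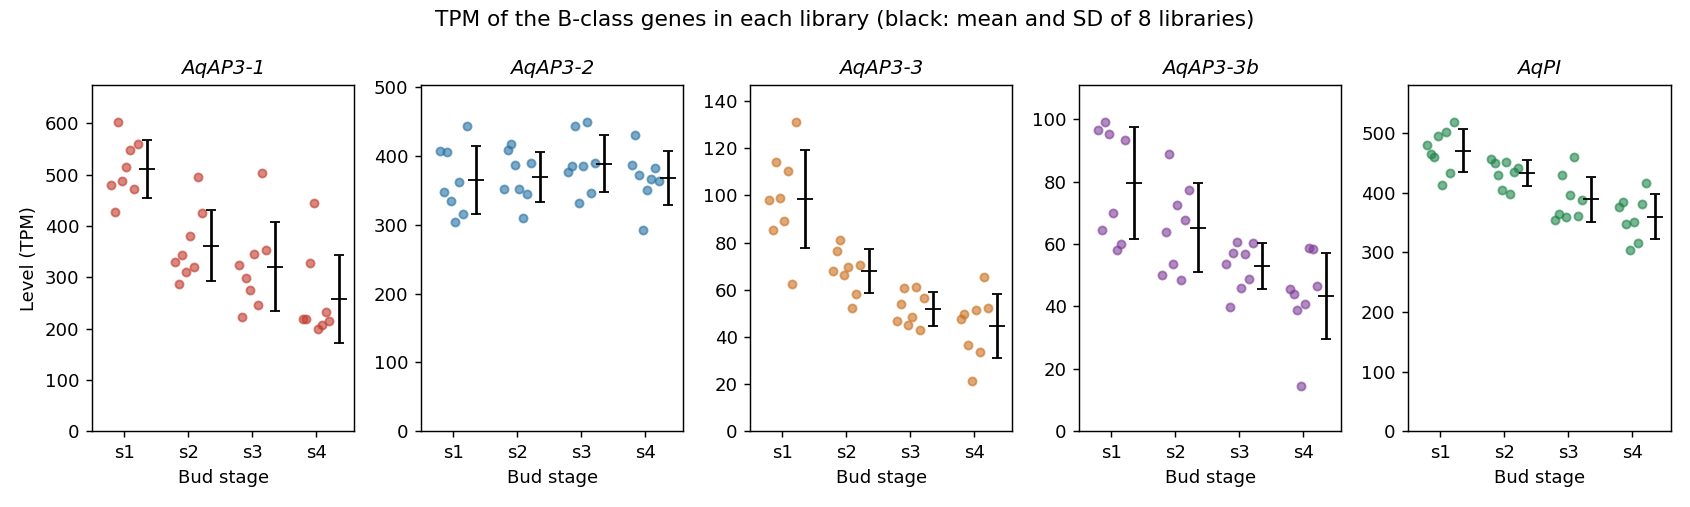
Level of each B-class gene (y axis, TPM, with a separate scale for each gene starting at 0) by bud stage (x axis), with 1 coloured point for each library and the mean and SD of 8 libraries in black. AqAP3-2 stays between means of 366 and 389 TPM, while the means of the other 4 genes are lower at each later stage.

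The stages were compared in a quasi-likelihood model of the counts (edgeR) fitted to all 32 libraries and 20477 genes, with p-values adjusted by the Benjamini-Hochberg method over those genes. A gene passed at an adjusted p under 0.05, and was called when its absolute log2 fold change was also at least 1. Between s4 and s1, AqAP3-1, AqAP3-3, AqAP3-3b and AqPI, 4 of the 5 members, passed as lower and none as higher, against 10% of all genes tested that passed as lower. Between s3 and s1, AqAP3-1, AqAP3-3, AqAP3-3b and AqPI again passed as lower, against 2.41% of all genes. Between s4 and s2, 3 members passed as lower, against 5.96%. No member passed between neighbouring stages, where 0.332% (s2 over s1), 0.23% (s3 over s2) and 1.71% (s4 over s3) of all genes passed as lower. At an unadjusted p under 0.05 in edgeR, 2 members were lower in s2 over s1, 2 in s3 over s2 and 0 in s4 over s3. DESeq2 passed 1 (AqAP3-3), 0 and 0 of them at an adjusted p under 0.05. The shares of all genes above are for the adjusted p in edgeR, so these counts have no share beside them and are only descriptions. Without s4 replicate 4, AqAP3-1 (adjusted p = 0.047) and AqAP3-3 (adjusted p = 0.029) passed as lower in s2 over s1, and AqAP3-1 passed in s4 over s3 (log2 fold change -0.44, adjusted p = 0.039). The median log2 fold change of the members was -0.82 for s4 over s1, -0.57 for s3 over s1 and -0.41 for s4 over s2, and that of all genes was 0.01, 0.01 and 0.00. The comparisons with s1 share the s1 libraries, and those with s4 share the s4 libraries, so they are not independent of each other. In pooled buds, fewer cells expressing a gene and less RNA per cell cannot be told apart.

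AqAP3-1, a paralog active in staminodes and stamens, had the largest difference in mean TPM between s4 and s1 of the 5 genes. It ranged from 427 to 603 TPM at s1 (median 501 TPM), from 286 to 495 TPM at s2 (median 337 TPM), from 224 to 503 TPM at s3 (median 311 TPM) and from 199 to 445 TPM at s4 (median 219 TPM). The step was visible early, since 7 of 8 libraries of s2, of s3 and of s4 lay below the lowest library of s1. The exceptions were the libraries that scored highest on the within-stage component at each of these stages, s2 replicate 7, s3 replicate 7 (503 TPM) and s4 replicate 4 (445 TPM). The log2 fold change of s4 over s1 was -0.90 ± 0.16 (SE, adjusted p = 0.00011), and that of s3 over s1 was -0.65 ± 0.16 (adjusted p = 0.0095). AqAP3-1 was not called in s4 over s1, but without s4 replicate 4 its log2 fold change was -1.09 (adjusted p = 3.5e-07), beyond the fold threshold. For s2 over s1 the value was -0.48 ± 0.16 (adjusted p = 0.21), which did not pass, and the 95% interval was -0.82 to -0.15. The s4 over s2 value of -0.41 ± 0.16 (adjusted p = 0.086) became -0.60 (adjusted p = 0.0021) without s4 replicate 4.

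AqAP3-2, the paralog most closely tied to stamens, did not pass in any of the 6 comparisons. It ranged from 304 to 444 TPM at s1 (median 355 TPM), from 310.1 to 417 TPM at s2 (median 370.0 TPM), from 332 to 449.6 TPM at s3 (median 386 TPM) and from 292 to 430.1 TPM at s4 (median 369.5 TPM). All 4 ranges overlapped, and the lowest value of all was that of s4 replicate 4. The log2 fold change of s4 over s1 was 0.08 ± 0.09 (SE, adjusted p = 0.52) with a 95% interval of -0.10 to 0.27, so that changes larger than this on the log2 scale lay outside the interval. The other 5 log2 fold changes lay between -0.03 and 0.12. Aqcoe6G257200, whose identifier falls between those of AqAP3-1 and AqAP3-2, averaged 12.9 TPM at s1, 12.4 TPM at s2, 12.8 TPM at s3 and 12.4 TPM at s4 and did not pass in s4 over s1 (log2 fold change 0.04 ± 0.09, adjusted p = 0.77).

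AqAP3-3, the petal identity gene, was the only member called. It ranged from 62.4 to 131 TPM at s1 (median 98.5 TPM), from 52.3 to 81.1 TPM at s2 (median 68.8 TPM), from 42.8 to 61.3 TPM at s3 (median 51.1 TPM) and from 21.3 to 65.3 TPM at s4 (median 48.5 TPM). The s1 libraries spread widely, with a single low library at 62.4 TPM, and by counts scaled to library size (CPM) 7 of 8 libraries of s3 and of s4 were below all of s1. The log2 fold change of s4 over s1 was -1.08 ± 0.15 (SE, adjusted p = 2.4e-06), a level in s4 0.472 times that in s1. Among all genes tested, 1.94% were called as lower in this comparison. Without s4 replicate 4 the value was -0.99 (adjusted p = 1.9e-06), just inside the fold threshold, so the call but not the test rested on that library. AqAP3-3 was also lower in s3 than in s1 (log2 fold change -0.90 ± 0.15, adjusted p = 0.00012) and in s4 than in s2 (-0.56 ± 0.15, adjusted p = 0.012). The value for s2 over s1 was -0.53 ± 0.15 (adjusted p = 0.093).

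AqAP3-3b, the second locus named after the AP3-3 lineage, moved in the same direction with a wider spread. It ranged from 58.2 to 99.1 TPM at s1 (median 81.6 TPM), from 48.5 to 88.8 TPM at s2 (median 65.7 TPM), from 39.8 to 60.6 TPM at s3 (median 55.2 TPM) and from 14.6 to 58.8 TPM at s4 (median 44.7 TPM). The s1 libraries were split, with 4 of them at 93.2 TPM or more and 4 at 70.0 TPM or less, and 6 of 8 s4 libraries were below every s1 library. The lowest value, 14.6 TPM, belonged to s4 replicate 4, and the other 7 libraries of s4 held 38.8 to 58.8 TPM. AqAP3-3b was lower in s4 than in s1 (log2 fold change -0.82 ± 0.18, SE, adjusted p = 0.00083). The s3 over s1 value of -0.57 ± 0.18 (adjusted p = 0.041) and the s4 over s2 value of -0.54 ± 0.18 (adjusted p = 0.037) were close to the threshold. The first was lost (adjusted p of 0.051 to 0.089) in 10 of 32 fits that each left out a single library, namely replicates 1, 3, 4 and 8 of s1 and replicates 1, 2, 3, 5, 6 and 7 of s3. The second was lost (adjusted p of 0.051 to 0.081) in 9 of 32, those without replicates 3, 5, 7 and 8 of s2 and replicates 1, 2, 3, 5 and 8 of s4.

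AqPI, the partner of all AP3 proteins, had smaller log2 fold changes than the other 3 genes that passed, and varied little. It ranged from 412 to 519 TPM at s1 (median 473 TPM), from 398 to 457 TPM at s2 (median 438 TPM), from 355 to 459.7 TPM at s3 (median 376 TPM) and from 304 to 417 TPM at s4 (median 364 TPM). The ranges overlapped throughout, but 7 of 8 s4 libraries lay below all s1 libraries. AqPI was lower in s4 than in s1 (log2 fold change -0.31 ± 0.07, SE, adjusted p = 0.00096), at 0.807 times the s1 level. It was also lower in s3 than in s1 (-0.25 ± 0.07, adjusted p = 0.019) and in s4 than in s2 (-0.21 ± 0.07, adjusted p = 0.033). The last of these was lost (adjusted p of 0.05 to 0.068) in 6 of 32 fits without a single library, which were replicates 1, 2, 5 and 8 of s2 and replicates 5 and 6 of s4.

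**Figure D2:**
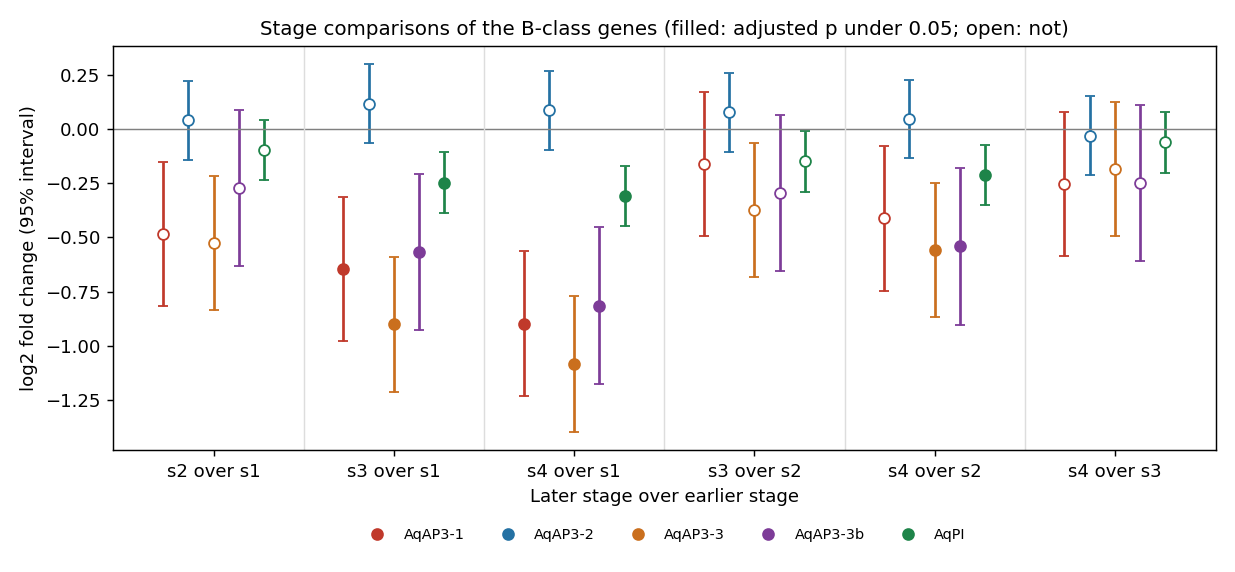
Log2 fold change of each B-class gene (y axis) with its 95% interval (bars) for the 6 stage comparisons, the later stage over the earlier (x axis), with filled points where the adjusted p was under 0.05. All filled points lie below 0, the lowest being AqAP3-3 at -1.08 for s4 over s1, and every AqAP3-2 interval crosses 0.

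Because scaling for depth and RNA composition cancels within a library, the members were next compared as log2 ratios of TPM in the same library. The tissue make-up of the buds need not cancel in such a ratio. The 10 pairs and 6 stage comparisons gave 60 exact two-sided permutation tests over the 16 libraries compared, for which the smallest possible p is 0.00016, and adjustment was over these 60 tests. The paralogs AqAP3-1 and AqAP3-2 exchanged their order. AqAP3-1 was the higher in 8 of 8 libraries at s1, 4 of 8 at s2, 1 of 8 at s3 and 1 of 8 at s4. The ratio of AqAP3-1 to AqAP3-2 ranged from 1.18 to 1.69 at s1 (median 1.47), from 0.701 to 1.43 at s2 (median 0.984), from 0.547 to 1.45 at s3 (median 0.843) and from 0.508 to 1.52 at s4 (median 0.580). The single libraries that kept AqAP3-1 on top were s3 replicate 7, at 1.45, and s4 replicate 4, at 1.52. The mean log2 ratio was lower by 1.05 in s4 than in s1 (-0.56 ± 0.53 against 0.49 ± 0.18, SD, n = 8 each; exact permutation p = 0.0012, adjusted p = 0.0053). It had already moved between s2 and s1 (difference -0.54, exact permutation p = 0.0016, adjusted p = 0.0062), and between s3 and s1 the difference was -0.80 (exact permutation p = 0.00062, adjusted p = 0.0031). Between s4 and s2 the difference of -0.51 did not pass (exact permutation p = 0.036, adjusted p = 0.077). With s4 replicate 4 and s3 replicate 7 left out, a choice made after seeing the data, it was -0.68 (adjusted p = 0.0052).

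The ratio of AqAP3-2 to AqAP3-3 separated the stages most cleanly. It ranged from 3.29 to 5.06 at s1 (median 3.49), from 5.06 to 5.94 at s2 (median 5.42), from 6.91 to 8.09 at s3 (median 7.33) and from 5.86 to 13.7 at s4 (median 8.39). All 8 libraries of s2 lay above all 8 of s1, and all 8 of s3 above all 8 of s2, although the highest s1 and the lowest s2 ratio were equal to 3 digits. The log2 ratio was higher by 0.55 in s2 than in s1, by 0.45 in s3 than in s2 and by 1.19 in s4 than in s1 (exact permutation p = 0.00016 and adjusted p = 0.0016 for each, n = 8). Between s4 and s3, the log2 ratio differed by 0.19 (exact permutation p = 0.21, adjusted p = 0.35), and the SD was 0.40 at s4 and 0.09 at s3. For AqAP3-2 over AqAP3-3b, the log2 ratio was higher by 0.95 in s4 than in s1 (exact permutation p = 0.00016, adjusted p = 0.0016), with 8 of 8 s4 libraries above all of s1.

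No stage comparison of the other 3 AP3 pairs passed. The log2 ratio of AqAP3-3 to AqAP3-3b was 0.31 ± 0.30 in s1, 0.07 ± 0.24 in s2, -0.02 ± 0.26 in s3 and 0.07 ± 0.40 in s4 (SD, n = 8 each). The lowest adjusted p among its 6 comparisons was 0.068, for the s3 over s1 difference of -0.34 (exact permutation p = 0.03), which passed without s3 replicate 2 (adjusted p = 0.019) and, at the threshold itself, without s1 replicate 1 (adjusted p = 0.05). The log2 ratio of AqAP3-1 to AqAP3-3 was 2.54 ± 0.86 at s4 (median 2.17), against 2.40 ± 0.24 at s1, and s4 replicate 4 had the highest value, 4.38. Without that library the s4 mean was 2.27, and the difference from s1 was -0.12 in place of 0.14, with neither passing. For AqAP3-1 over AqAP3-3b the difference between s4 and s1 was -0.10, and -0.43 without s4 replicate 4 (adjusted p = 0.075).

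Against AqPI, the AP3 paralogs took different courses. The ratio of AqAP3-2 to AqPI had medians of 0.743 in s1, 0.838 in s2, 0.992 in s3 and 1.02 in s4. Its log2 value was higher by 0.41 in s4 than in s1 (exact permutation p = 0.00031, adjusted p = 0.0023, with 7 of 8 s4 libraries above all of s1) and by 0.37 in s3 than in s1 (exact permutation p = 0.00016, adjusted p = 0.0016). AqAP3-1 fell against AqPI by 0.65 in s4 relative to s1 (exact permutation p = 0.0056, adjusted p = 0.017), and AqAP3-3 fell by 0.78 (exact permutation p = 0.00047, adjusted p = 0.0025). AqAP3-3b over AqPI was lower by 0.54 (exact permutation p = 0.019, adjusted p = 0.047), and this call was lost in 11 of 16 tests that left out a single library (adjusted p of 0.061 to 0.088), among them s4 replicate 4 (difference -0.37, adjusted p = 0.076). The summed TPM of the 4 AP3 genes was 2.24 ± 0.22 times the AqPI level in s1, 1.995 ± 0.18 times in s2 buds, 2.11 ± 0.26 times in s3 and 2.01 ± 0.28 times in s4 (SD, n = 8 each). These summed values were not tested.

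**Figure D3:**
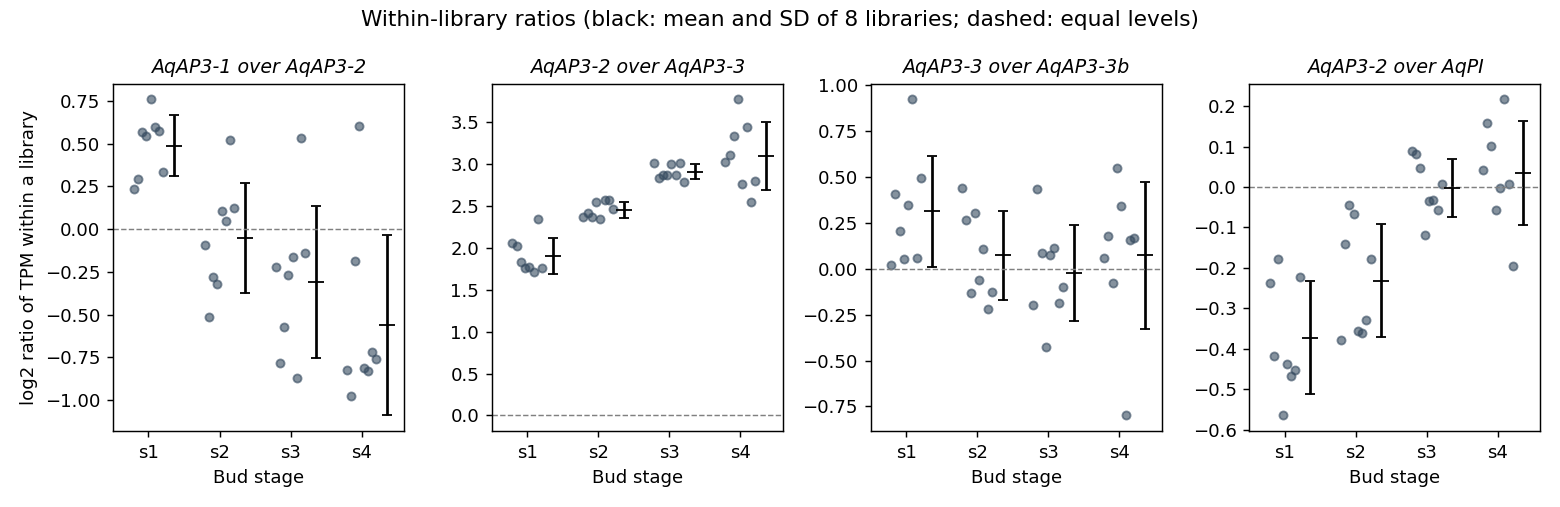
Log2 ratio of the TPM of a pair of genes within a library (y axis, a separate scale for each pair) by bud stage (x axis), with 1 point for each library, the mean and SD of 8 libraries in black and equal levels dashed. The mean of AqAP3-1 over AqAP3-2 is below the dashed line at s4 (-0.56) and above it at s1 (0.49), with s3 replicate 7 and s4 replicate 4 above the other libraries of their stage.

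The make-up of the AP3 pool followed from these ratios. AqAP3-1 made up 48.6 ± 3.1% of the summed AP3 TPM in s1, 41.6 ± 5.3% in s2, 39.0 ± 7.3% in s3 and 35.7 ± 9.7% in s4, while AqAP3-2 made up 34.6% in s1, 43.0% in s2, 48.0% in s3 and 51.8% in s4 (SD, n = 8 each). Without s3 replicate 7 and s4 replicate 4, the AqAP3-1 share was 36.9 ± 4.7% at s3 and 32.6 ± 4.3% at s4, and the AqAP3-2 share was 49.6% in s3 and 53.8% in s4, over 7 libraries of each stage. AqAP3-3 contributed 6.33% at s4, against 9.27% at s1, and AqAP3-3b contributed 6.16% at s4, against 7.51% at s1. The summed AP3 level itself averaged 1056 ± 122 TPM in s1, 865 ± 84.2 TPM in s2, 814 ± 78.8 TPM in s3 and 714 ± 50.3 TPM in s4.

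**Figure D4:**
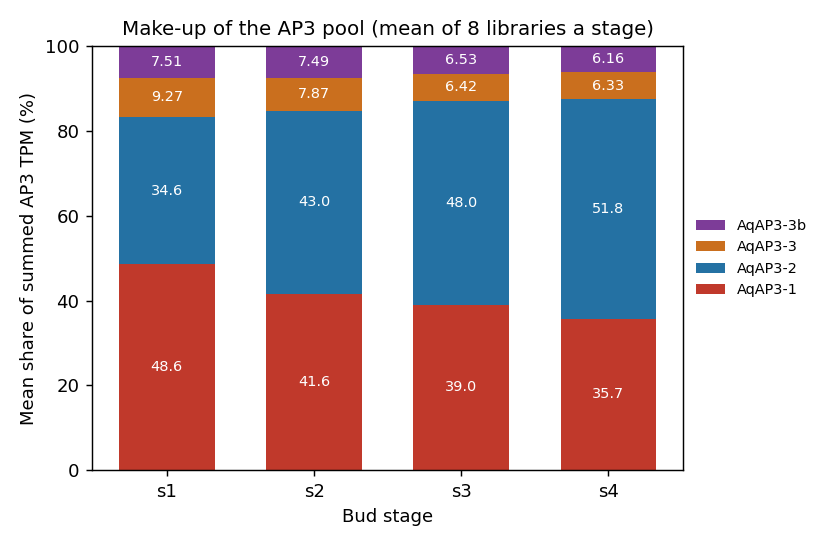
Mean share of each AP3 paralog in the summed AP3 TPM of a library (y axis, %, mean of 8 libraries) by bud stage (x axis). AqAP3-1 takes 35.7% at s4, against 48.6% at s1, and AqAP3-2 takes 51.8% at s4, against 34.6% at s1.

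Libraries of the same stage differed in the balance of the paralogs as well. The biological coefficient of variation, the spread between libraries of a stage beyond counting error in the edgeR model, was 11.3% for AqPI and 13.7% for AqAP3-2, at percentiles 4.14 and 14.2 of all genes tested. It was 21.5% for AqAP3-3, 23.3% for AqAP3-1 and 24.9% for AqAP3-3b, between percentiles 43.6 and 53.1. When the stage means were removed, AqAP3-2, AqAP3-3 and AqPI deviated together, with Pearson's r of 0.70 for AqAP3-2 with AqAP3-3, 0.68 for AqAP3-2 with AqPI and 0.71 for AqAP3-3 with AqPI over 32 libraries. Without s4 replicate 4 and s3 replicate 7, and with the stage means taken anew, these were 0.69, 0.66 and 0.72 over 30 libraries. The coefficients of AqAP3-1 were negative over all libraries, at -0.44 with AqAP3-3, -0.36 with AqAP3-3b, -0.24 with AqPI and -0.21 with AqAP3-2, but rested on those libraries, since without them they were -0.07 with AqAP3-3, 0.19 with AqAP3-3b, -0.11 with AqPI and 0.01 with AqAP3-2. These coefficients are descriptions over values that share libraries and normalization, and they carry no test. With the scores on the leading within-stage component, the deviations of AqAP3-1 were positively correlated (r = 0.81) and those of AqAP3-3 (r = -0.80), AqPI (r = -0.66), AqAP3-2 (r = -0.63) and AqAP3-3b (r = -0.53) negatively. The coefficients without s4 replicate 4 and s3 replicate 7 were 0.62 for AqAP3-1, -0.72 for AqAP3-3, -0.71 for AqPI, -0.62 for AqAP3-2 and -0.22 for AqAP3-3b, so that of AqAP3-3b rested largely on those libraries. The AqAP3-1 to AqAP3-2 ratio had r = 0.93 and Spearman's rho of 0.85 with this component, and r = 0.87 without the same libraries. For the coefficients with the component, its scores and the stage means stayed those of all 32 libraries when libraries were left out. Leaving them out was therefore only a partial check. The component was computed from the same table, which included the members, and what sets it was not tested.

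**Figure D5:**
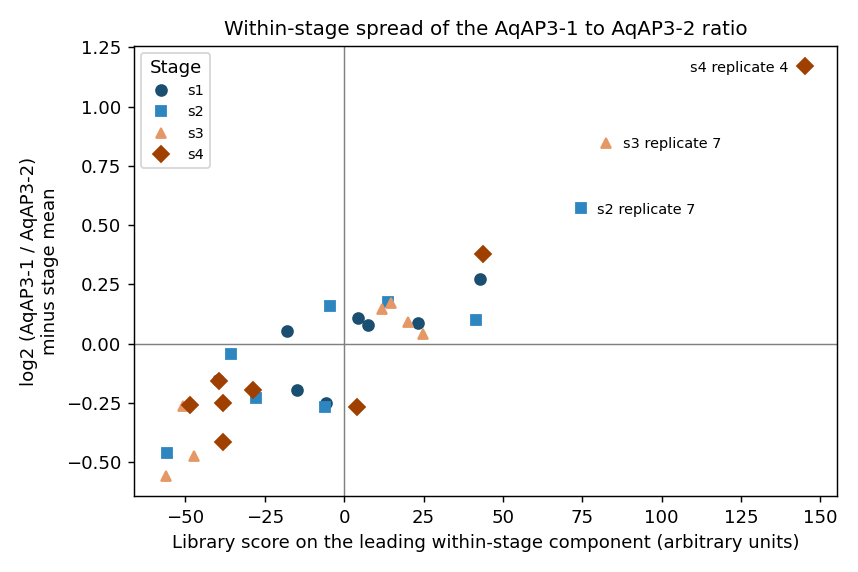
Log2 ratio of AqAP3-1 to AqAP3-2 TPM in each library minus the mean of its stage (y axis) against the score of the library on the leading within-stage component (x axis, arbitrary units), with 1 point for each of 32 libraries and a marker for each stage. Libraries with higher scores have higher ratios (r = 0.93), and s4 replicate 4 (score 145) is farthest out.

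The other 15 type II MADS-box genes included the partners of the B-class proteins. Between s4 and s1, 3 of them passed as higher and 8 as lower, against 15.2% and 10% of all genes, with a median log2 fold change of -0.33, and 6 were called, against 9.24% of all genes. Of the 4 SEPALLATA genes and AqAGL6, which encode further subunits of floral complexes, 4 were lower and AqSEP3 was higher. AqSEP3 averaged 156 TPM at s4 and 132 TPM at s1 (log2 fold change 0.32 ± 0.07, SE, adjusted p = 0.00092). AqSEP1 fell by 2.02 on the log2 scale (adjusted p = 3.1e-11) and AqAGL6 fell by 1.46 (adjusted p = 1.1e-11), with all 8 s4 libraries below all 8 of s1 for both, as held for 2.98% of all genes. Of the C-class genes, which act with B-class genes in stamens and alone in carpels, AqAG2 rose by 1.96 on the log2 scale (adjusted p = 1.6e-05). AqAG1 did not pass (-0.10 ± 0.14, adjusted p = 0.62), and its estimated counts were whole in 0 of 32 libraries, as happens where reads are divided between transcripts. Of the remaining genes, AqAGL12 rose by 3.68 on the log2 scale, from a low mean of 0.47 TPM at s1 to 5.90 TPM at s4. AqSEP2a (-0.74), AqSEP2b (-0.69), AqFL2 (-1.36), AqSOC1.1 (-1.98), AqSOC1.2 (-0.33) and Aqcoe6G153100 (-0.83) passed as lower. AqFL1 (0.01), AqAGL24 (0.21) and Aqcoe4G024100 (-0.17) did not pass. The counts of AqFL1, AqFL2, AqSEP2b and Aqcoe4G024100 were also whole in 0 of 32 libraries. Those of AqSEP2a were whole in 1, of AqSEP1 and AqSEP3 in 9 each, of AqAGL24 in 14 and of AqSOC1.2 in 31. The values of these genes and of AqAG1 are therefore uncertain, least so for AqSOC1.2.

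Genes that activate or limit B-class expression in Arabidopsis were examined as a list of 3. AqLFY, the homolog of the floral meristem identity gene LEAFY, averaged 312 TPM at s4 and 1077 TPM at s1 (log2 fold change -1.70 ± 0.14, SE, adjusted p = 1.1e-10). AqUFO1, the homolog of the F-box cofactor UNUSUAL FLORAL ORGANS, averaged 4.25 TPM at s4 and 79.3 TPM at s1 (log2 fold change -4.15 ± 0.24, adjusted p = 3.2e-14). Both had all s4 libraries below all of s1, whereas AqAP2 did not pass (0.24 ± 0.17, adjusted p = 0.31). For Aquilegia, the study cites earlier work in which AqUFO1 and AqUFO2 promoted floral meristem identity with AqLFY, without a clear role in B-class activation. Markers of the tissues in the buds also moved with stage. All 3 floral meristem markers were called as lower in s4 than in s1, with log2 fold changes of -1.62 for AqWUS, -2.02 for AqSTM1 and -2.67 for AqSTM2. Estimated counts were whole in 0 of 32 libraries for AqSTM1, in 22 for AqAP2 and in 31 for AqCRC. The AqSTM1 value is therefore uncertain too. The carpel marker AqCRC was called as higher (1.47), as were the stomatal lineage markers AqMUTE (1.88) and AqEPF1 (2.08). How far tissue make-up accounts for these marker changes or for the B-class results was not tested.

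Each member was finally set beside the genes whose log2 CPM followed it most closely over the 32 libraries, among 20476 other genes. The closest to AqAP3-1 were Aqcoe5G027200 (Pearson's r = 0.91, Spearman's rho = 0.90), Aqcoe7G116700 (r = 0.90) and Aqcoe3G109200 (r = 0.90). AqFL2, a FRUITFULL-like MADS-box gene with uncertain values (counts not whole), ranked 6 (r = 0.88), or 43 without s4 replicate 4 and s3 replicate 7. For AqAP3-2 the closest were Aqcoe7G061600 (r = 0.80, rho = 0.82), Aqcoe7G387800 (r = 0.79) and Aqcoe1G205200 (r = 0.78). The closest to AqAP3-3 were Aqcoe2G414600, annotated with an X8 carbohydrate-binding domain (r = 0.91, rho = 0.90), Aqcoe3G223800, annotated as a bHLH protein (r = 0.91, rho = 0.93), and Aqcoe2G081500, annotated in the SEC14 family (r = 0.91, rho = 0.86). AqAP3-3b was followed most closely by Aqcoe2G045800 (r = 0.88, rho = 0.79), the FPF1-like gene Aqcoe1G457900 (r = 0.86, rho = 0.73) and Aqcoe4G184600, annotated as an FKBP-like isomerase (r = 0.86, rho = 0.77), and without the same libraries these had r of 0.76, 0.73 and 0.77. For AqPI they were Aqcoe1G399300, annotated as a B3-domain protein of the REM type (r = 0.89, rho = 0.91), Aqcoe6G077500 (r = 0.88) and Aqcoe1G295900 (r = 0.87). Members were also near each other in this ranking. AqAP3-3 was the gene at rank 4 for AqPI (r = 0.87) and at rank 16 for AqAP3-3b (r = 0.81, or 0.74 without the same libraries). AqAP3-1 and AqAP3-2, by contrast, had r = -0.31 (-0.27 without them), which placed AqAP3-2 at rank 13861 for AqAP3-1. The coefficients combine the course over stages with the spread within them and are given as descriptions.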

How the data were processed

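RNA from 32 bud samples was made into SMART-Seq v4 and Nextera XT libraries, and the authors quantified reads against the Aquilegia transcriptome with kallisto 0.46.1. The deposited values were estimated counts and TPM per transcript, with 1 transcript a locus. Members and gene lists were chosen with earlier results of these data known. The loci were read from the study's display of MADS-box genes, and beside them the text names every gene of the fixed lists, the 3 genes most correlated with each member, and loci numbered between members, except where another is said to be chosen after its values were seen. No genome of this assembly was used, and none of the 24823 entries of the RefSeq table carried these identifiers, so no positions or sequences are given.

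Estimated counts were rounded, filtered to genes over 1 CPM in at least 1 library (20477 genes), scaled by TMM and tested by quasi-likelihood in edgeR 4.0.16 (R 4.3.3) with stage as the factor. Library totals of 21502103 to 31647297 counts gave every member at least 334 counts. Log2 ratios used TPM plus 0.1 and exact two-sided permutation tests over all splits (numpy 2.4.6), checked against scipy 1.17.1 on random values. Likeness was Pearson's r of log2 CPM. Alternatives were DESeq2 1.42.0, length-scaled counts, RLE factors, other filters and pseudocounts, the 16 compared libraries alone, the replicate number, the residual component, and each library left out. The model was tested on simulated data.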

Additional observations from a re-analysis of the deposited data

Results flagged for a closer look

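The TPM of each member, the log2 ratio of each pair of members and the ratio of summed AP3 to AqPI were examined in every stage for a library standing far from the other 7 (Dixon's criterion), which chance alone flags in about 1 in 20 groups. Of 64 groups examined, 6 were flagged, and 4 of these concerned s4 replicate 4. For AqAP3-1, s3 replicate 7 held 503 TPM, where the other libraries of s3 held 224 to 354 TPM. AqAP3-3b was at 14.6 TPM in s4 replicate 4, where the others held 38.8 to 58.8 TPM. The same library had a log2 ratio of AqAP3-1 to AqAP3-3b of 4.92 (others 1.81 to 3.07), of AqAP3-2 to AqAP3-3b of 4.32 (others 2.64 to 3.29), and of AqAP3-3b to AqPI of -4.37 (others -3.16 to -2.42). For AqAP3-3 over AqAP3-3b, s4 replicate 6 had a log2 ratio of -0.80, where the others lay between -0.08 and 0.55.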

How the results depend on the processing

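The log2 fold changes of s4 over s1 for all 5 members, and the AqAP3-1 to AqAP3-2 ratio in that comparison, kept their direction and their side of the adjusted p threshold under every alternative run, while AqAP3-3 crossed the fold threshold without s4 replicate 4, as did AqAP3-1 in the other direction. Without 1 library at a time, they ranged from -1.09 to -0.85 for AqAP3-1, from 0.04 to 0.13 for AqAP3-2, from -1.17 to -0.99 for AqAP3-3, from -0.89 to -0.69 for AqAP3-3b, from -0.33 to -0.28 for AqPI and from -1.22 to -0.99 for the ratio.

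Weaker comparisons moved across the threshold. AqAP3-3b in s3 over s1 missed it with no filter on low counts (adjusted p = 0.05) and in s4 over s2 with the 16 compared libraries alone (adjusted p = 0.11). AqPI in s4 over s2 missed it with RLE factors (adjusted p = 0.05), no filter (adjusted p = 0.054) and 16 libraries (adjusted p = 0.099). In s2 over s1, AqAP3-3 passed in DESeq2 (adjusted p = 0.037) and AqAP3-1 with 16 libraries (adjusted p = 0.025). With the residual component as a covariate, AqAP3-1 (adjusted p = 0.0013) and AqAP3-3 (adjusted p = 0.00085) passed in s2 over s1, AqAP3-3 in s3 over s2 (adjusted p = 0.026), and AqAP3-1 in s4 over s2 (adjusted p = 0.00021) and s4 over s3 (adjusted p = 0.024). Without s4 replicate 4 and s3 replicate 7, a choice made after seeing the data, AqAP3-1 (adjusted p = 0.013) and AqAP3-3 (adjusted p = 0.025) passed in s2 over s1. The AqAP3-3 to AqPI ratio then missed the threshold in s4 over s2 (adjusted p = 0.067), and AqAP3-1 over AqPI passed there (adjusted p = 0.039). In tests that left out 1 library, AqAP3-1 over AqPI in s3 over s1 was lost in 12 of 16, and AqAP3-3 over AqPI in s4 over s2 in 11 of 16. The cause was not tested for these. Genes called over the whole table numbered 122 in s2 over s1, but 200 in DESeq2, 81 with 16 libraries, 207 with the residual component, and 73 without s1 replicate 6 or 77 without s2 replicate 4. They numbered 64 in s3 over s2, but 110 in DESeq2, 129 with the component and 98 without both libraries. In s4 over s3 there were 243, but 156 with 16 libraries, 481 with the component and 461 without s4 replicate 4.

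The labels do not say that replicate numbers pair the samples. Of 48 pairs of same-numbered libraries, 17 had deviations correlated above 0.1 (range -0.46 to 0.62, median 0.00). The pairs numbered 2 had r from 0.24 to 0.52. Pairs with different numbers were not examined, so whether same-numbered libraries share a plant or day was not tested. With the replicate block, AqAP3-1 over AqPI in s4 over s1 (adjusted p = 0.059) and in s3 over s1 (adjusted p = 0.072), AqAP3-3b over AqPI in s4 over s1 (adjusted p = 0.19), AqAP3-3 over AqPI in s4 over s2 (adjusted p = 0.12), AqAP3-2 over AqPI in s4 over s2 (adjusted p = 0.059), AqAP3-2 over AqAP3-3b in s3 over s2 (adjusted p = 0.12), and AqAP3-3b in s3 over s1 (adjusted p = 0.067) and in s4 over s2 (adjusted p = 0.056) missed the threshold. AqAP3-3 over AqAP3-3b in s3 over s1 passed it (adjusted p = 0.047). For ratios, the block was a sign-flip test over differences of same-numbered libraries, with a coarser smallest p than the main test. In it, even the fully separated AqAP3-2 to AqAP3-3 ratio in s2 over s1 had an adjusted p of 0.039. A ratio that missed the threshold here need not depend on pairing.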

Other observations

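One further gene of the B-class pathway was looked at after its values had been seen. Aqcoe3G345900 is annotated as a homolog of NAP, a NAC gene that AP3 and PI activate directly in Arabidopsis petals and stamens. Its mean level was 0.07 TPM at s1, 0.51 TPM at s2, 0.83 TPM at s3 and 3.19 TPM at s4. The s4 mean was carried by s4 replicate 4, which held 20.6 TPM where the s4 median was 0.64 TPM, and 6 of 8 s4 libraries were above all of s1. In the same library AqAP3-1 was the highest of s4 and the other 4 B-class genes were the lowest.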
